A study of Mus musculus with 214 samples.

Results

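The genes described here are 10 targets of the transcription factor Nrf2 that serve redox defence: Nqo1, Cbr3, Txnrd1, Srxn1, Gclc, Gclm, Gsr, Hmox1, Ephx1 and Abcc4. They were chosen by symbol, and all 10 have a row both among the 18647 genes measured in WT livers and among the 19540 measured in Mgmt-/- livers. Nrf2, encoded by Nfe2l2, is held low by Keap1, which presents it to the Cul3 ubiquitin ligase. When electrophiles or oxidants modify Keap1, Nrf2 escapes degradation, pairs with small Maf proteins and binds antioxidant response elements, DNA stretches near genes for quinone reduction, glutathione synthesis, thiol reduction and export. In liver this programme is best known from the response to reactive drug metabolites.

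Liver RNA was profiled as 3′ digital gene expression, which reads the 3′ end of each transcript, in 213 mice with values out of 214 labelled. Both genotypes were on a C57BL6 background and both carried the RaDR and gpt transgenes (RaDR+/+;GPT+/+, called WT), and 1 of them also lacked Mgmt (RaDR+/+;GPT+/+;Mgmt-/-), whose product removes methyl groups from the O6 position of guanine. The loss of Mgmt was in every cell, so the effect of a genotype cannot be assigned to hepatocytes. Pups were injected intraperitoneally with NDMA, a nitrosamine that hepatocytes activate to a methylating agent, at 3.5 mg/kg on postnatal day 8 and 7 mg/kg on postnatal day 15, or with saline, and livers of both sexes were taken on day 1, 2 or 5, in week 10 or in month 10 after treatment. In that order of times the WT groups held 26, 8, 8, 8 and 13 NDMA mice and 21, 8, 7, 8 and 10 saline mice. The Mgmt-/- groups held 12, 8, 8, 8 and 13 NDMA mice and 12, 7, 6, 8 and 12 saline mice. The 6 saline mice of day 5 are those left after 2 libraries were dropped. Values are normalized counts, that is, gene counts divided by 1 size factor per library, and each genotype was normalized by itself, so a level in one genotype cannot be set against a level in the other. Since whole liver was profiled, fewer cells of a type and less RNA per cell cannot be told apart.

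Some libraries stood apart. The 2 dropped libraries, labelled liver of Mgmt-/- saline mice on day 5, had kidney transcripts (Kap 6147 and 7562), with the kidney markers averaging 4432 and 4983 where no other of the 94 Mgmt-/- libraries went over 4.30. Their hepatocyte markers averaged 470 and 319, and those of the others were at least 17200, so the liver label was met there. Mgmt itself ran from 13.0 to 130 in the WT libraries and from 0 to 9.67 in the Mgmt-/- libraries. In WT, 4 NDMA libraries, 1 each on day 2, on day 5, in week 10 and in month 10, held fewer than 300000 reads. On WT day 1, 2 NDMA libraries had sex genes that went against their labels, and both had saline levels of Ephx1 (139 and 93.7) and of the p53 target Cdkn1a (30.3 and 16.3). In the same batch 1 WT saline library had Cdkn1a at 359, where the other 20 saline libraries of day 1 reached at most 38.8, and it also had the highest saline Ephx1, 353. Whether labels were exchanged among these 3 libraries could not be settled, so values of WT day 1 are those of the mice as labelled. The 3 libraries were kept, and tests of NDMA against saline on WT day 1 are also given without them and within single batches. Total reads ran from 150038 to 4791649 in 114 WT libraries (median 1710016) and from 713584 to 7740710 in 95 Mgmt-/- libraries (median 2347670).

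Within each genotype and time, limma compared log2(normalized count + 1) of NDMA and saline mice for genes with a mean of at least 5, allowing for sex and for the batch in the labels. On WT days 2 and 5 and in WT week 10 all males were in one batch and all females in another, so there sex and batch were 1 term and cannot be told apart. A gene was called higher or lower where its adjusted p (Benjamini-Hochberg, over every gene tested) was under 0.05 and its log2 fold change was beyond 0.58 in size. In Mgmt-/- livers 5 of 9 tested members were called higher on day 1, 6 of 9 on day 2, 7 of 10 on day 5, 5 of 10 in week 10 and 2 of 10 in month 10. Of all genes tested, 9.06%, 12.4%, 11.1%, 7.27% and 4.75% were called higher at these times and 8.64%, 7.5%, 6.71%, 3.88% and 2.99% lower. In WT livers 4 of 9 tested members were called higher on day 1, 1 of 9 on day 2, 1 of 9 on day 5, 0 of 8 in week 10 and 0 of 9 in month 10. The shares of all genes called higher were 5.01%, 3.33%, 2.22%, 0.0249% and 0%, and the shares called lower were 4.19%, 2.91%, 1.39%, 0% and 0%. In WT week 10 and month 10 no member had an unadjusted p under 0.05 with limma, against 4.35% and 8.18% of all genes. No member was called there with edgeR or DESeq2, by which 3 had such a p in month 10 and none in week 10. The share of all genes with such a p by these 2 tools is not given here, so the 3 cannot be read against it. No member was called lower in either genotype at any time. Without the shallow libraries 3 members were called on WT day 2 and 3 on WT day 5, where 5.39% and 5.48% of all genes were called higher. Without the 2 libraries of unmatched sex genes 4 members were called on WT day 1, and with the 2 kidney libraries kept 7 were called on Mgmt-/- day 5 (7.17% of all genes). Without the WT saline library of high Cdkn1a, or without all 3 discordant libraries, 3 were called on WT day 1 (Nqo1, Srxn1 and Ephx1), since the mean of Cbr3 then fell below 5 and it was not tested. For the settings of WT day 1 that leave out discordant libraries the share of all genes called is not given here. Of the 3 batches of WT day 1, taken alone, 5 members were called in the first (191212Eng, 5.44% of all genes called higher) and 4 in the third (210901Eng, 6.36%). In 200803Eng, which held the discordant libraries, no gene of 8965 was called in either direction and 2.94% had an unadjusted p under 0.05, so the lack of a call there says nothing about the members. The same holds for the females of WT days 2 and 5, all in batch 200724Eng, where alone 0% of all genes were called and 11.2% and 5.19% had such a p. The median log2 fold change of the tested members was 0.93, 1.27, 1.02, 1.11 and 0.21 in Mgmt-/- livers, where the median of all genes tested lay between -0.01 and 0.04. It was 0.41, 0.31, 0.13, 0.01 and -0.14 in WT livers, where that of all genes lay between -0.08 and -0.03. Scaling libraries to equal totals moved the median of all genes in Mgmt-/- livers by over 0.1 at 4 times, to 0.20, 0.20, 0.17 and 0.24 from day 1 to week 10, and turned no member's direction. With that scaling 16.2%, 17.7%, 15.6% and 11.9% of all genes were called higher at these 4 times and 5.06%, 4.35%, 4.42% and 1.81% lower, with 6, 6, 7 and 7 members called higher. On WT days 1 and 2 it gave 5.76% and 4.47% higher and 3.06% and 2.11% lower, with 4 and 1 members. The members that passed the filter on low values are not all members: Abcc4 was tested in 4 of the 10 comparisons and Cbr3 in 8. In all 8 the saline mean of Cbr3 was under 5, so it passed through its NDMA mice, as Abcc4 did in Mgmt-/- livers on day 5 and in week 10. Without members whose saline mean was under 5, those called numbered 4, 5, 6, 4 and 1 in Mgmt-/- livers, with medians of 0.72, 0.99, 1.02, 0.82 and 0.18, and 3, 1, 0, 0 and 0 in WT livers.

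**Figure D1:**
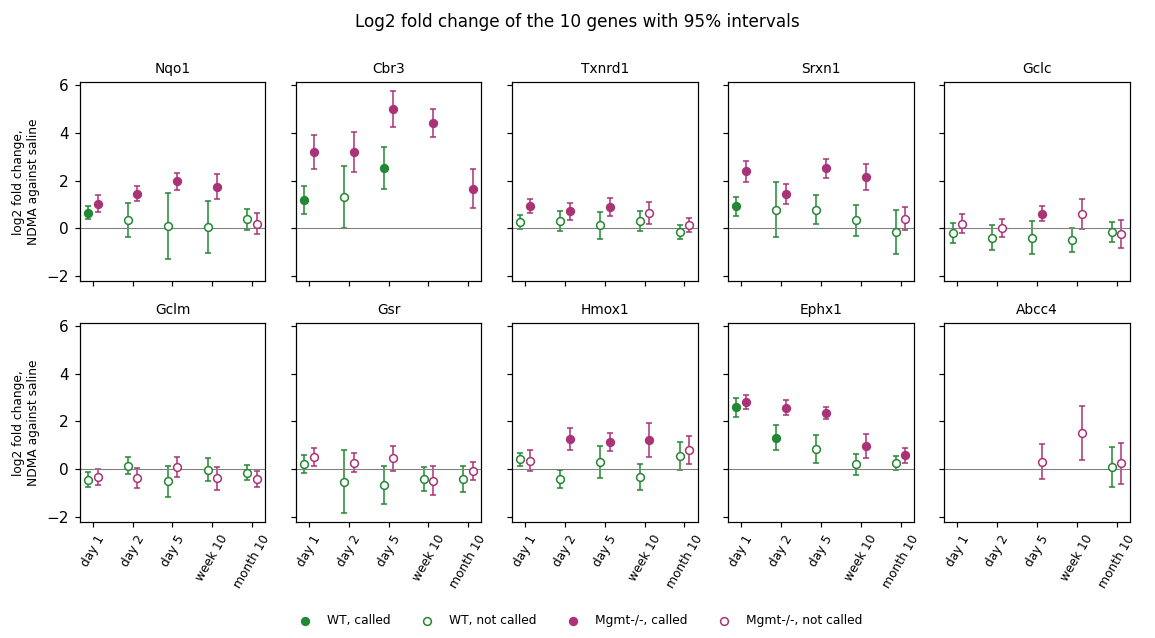
Log2 fold change of NDMA against saline (vertical axis) of each of the 10 genes at the 5 collection times (horizontal axis), in WT (green) and Mgmt-/- (purple) livers; bars are 95% intervals of the limma fit, filled circles are called higher, open circles are not called, and a missing point was under the filter on low values. Cbr3 reached 4.99 on day 5 in Mgmt-/- livers, while Gclm and Gsr were called at no time.

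All 10 are protein-coding genes, and their positions are those of GENCODE vM21 on GRCm38. The RefSeq promoter windows used here (GRCm38.p6, 250 bases before to 50 after a transcript start) covered 7 of the 10 genes with 10 windows. They were searched on both strands for the letters TGACNNNGC, the core of the antioxidant response element, which read GCNNNGTCA when they lie on the other strand. Of the 10 windows 5 (50%) held a match, in 4 of 7 genes, and of all 32851 windows 12.4% did. The windows of the other Nrf2 targets listed further on held it in 6 of 25 (24%). The 5 matches are shown on the gene's strand with 10 bases on either side and the matched letters in capitals, because they are where the known factor of these genes could be looked for.
Srxn1, chr2:152105542-152105570, plus strand: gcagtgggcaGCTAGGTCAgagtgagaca
Gclm, chr3:122245413-122245441, plus strand: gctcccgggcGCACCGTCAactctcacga
Txnrd1, chr10:82859104-82859132, plus strand: ctggatttttGCTTTGTCAttctgacacg
Abcc4, chr14:118706226-118706254, minus strand: gccccgagagGCGGGGTCAgggcgggccg
Abcc4 second start, chr14:118676936-118676964, minus strand: aataatctcgTGACTCTGCcgtggtggat
The Gclm match lay 134 bases before the start and the Srxn1 match at base 29 after it. The Txnrd1 match lay 92 bases before a later start, in the window from 82858956 to 82859255. Its windows that begin at 82833701 and 82860091 held none. No match was found in the windows of Nqo1, Cbr3 and Ephx1, which says only that these letters are not within those 300 bases. A match is a description of the sequence, and no binding was measured. The genes with a match were called in Mgmt-/- livers at 4 times (Srxn1), 3 times (Txnrd1) and at no time (Gclm and Abcc4), and those without at 5 (Cbr3 and Ephx1) and 4 times (Nqo1).

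Nqo1 (chromosome 8, 107388225 to 107403206) encodes a quinone reductase that uses NADH or NADPH to take quinones to hydroquinones in a single step, and it is the classic readout of Nrf2 activity. In Mgmt-/- livers its normalized count on day 1 was 18.4, 49.8 and 104 (lowest, median and highest) with NDMA and 11.2, 25.1 and 38.3 with saline. On day 5 it was 109, 165 and 225 with NDMA and 30.4, 38.5 and 51.2 with saline. The groups overlapped on day 1, where 9 of 12 NDMA mice were above every saline mouse, and were apart on days 2 and 5. It rose by 1.03 ± 0.17 on the log2 scale (SE, adjusted p = 1.53e-05, limma) on day 1, 1.45 ± 0.15 on day 2 and 1.97 ± 0.17 (adjusted p = 5.75e-09, limma) on day 5. The day 1 call was lost in batch 200803Eng alone (0.84, adjusted p = 0.221, limma), where 2.64% of all genes were called higher. In week 10 it was 1.74 ± 0.26 (adjusted p = 4.36e-05, limma), with NDMA mice from 16.9 to 136 and saline mice from 4.92 to 27.7. The overlap in week 10 lay between the sexes: the 4 NDMA females (44.9 to 136) were above the 4 saline females (16.6 to 27.7), and the 4 NDMA males (16.9 to 43.8) were above the 4 saline males (4.92 to 11.3). In month 10 the log2 fold change was 0.18 (95% interval -0.25 to 0.62) and the gene was not called. In WT livers Nqo1 was called on day 1, with 34.2 in 26 NDMA mice (mean) and 21.2 ± 7.51 (SD) in 21 saline mice and a log2 fold change of 0.66 ± 0.14 (SE, adjusted p = 0.000313, limma). That call was lost with a pseudocount of 5 (0.57) and in the batch of the discordant libraries alone (0.35). At the other 4 times it was not called (0.04 to 0.37), although on WT day 2 it was in the batch of the males alone (1.17, adjusted p = 0.0122), and the times were not tested against each other. The shallow libraries set the smallest of these values: without them Nqo1 was 0.74 in place of 0.08 on WT day 5 and 0.57 in place of 0.04 in week 10, and not called.

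Cbr3 (chromosome 16, 93683215 to 93690990) encodes a carbonyl reductase of the short-chain dehydrogenase family, which reduces ketones and quinones with NADPH. With the pseudocount of 1 it had the largest log2 fold change of the 10 genes in Mgmt-/- livers at each of the 5 times, but with a pseudocount of 5 Ephx1 was ahead of it on day 1 (2.79 against 2.32) and day 2 (2.56 against 2.19), as it was on day 1 in batch 200803Eng alone. Saline livers held little of it: on day 5 the 6 Mgmt-/- saline mice had 0 to 4.71 (median 2.61), from 21 reads in all, and the 8 NDMA mice had 56.3, 99.3 and 129 (lowest, median and highest), from 1145 reads. In week 10 saline mice had 2.46, 5.27 and 6.04 and NDMA mice 57.2, 114 and 294. The groups were apart on days 2 and 5 and in week 10, and on day 1 in all but 2 of 12 NDMA mice. From day 1 to week 10 its log2 fold change was 3.19 ± 0.34, 3.20 ± 0.40, 4.99 ± 0.36 and 4.42 ± 0.28 (SE), and the adjusted p of the week 10 value was 1.81e-10 (limma). With few reads in saline livers these fold changes move with the pseudocount, and with 5 in place of 1 the week 10 value was 3.69. In WT livers Cbr3 rose on day 5, where 7 saline mice had 0 to 3.53 and 8 NDMA mice 6.61 to 28.8, with no overlap and a log2 fold change of 2.53 ± 0.43 (SE, adjusted p = 0.00346, limma), a call lost in the batch of the females alone (2.57, adjusted p = 0.786). It was also called on WT day 1 (log2 fold change 1.19 ± 0.30), where saline mice ran from 0 to 20.3, the highest being the library of high Cdkn1a, and NDMA mice from 0 to 21.2. That call was lost with a pseudocount of 5 (0.55), and the value was -0.59 within the batch that held the 2 libraries with unmatched sex genes. On WT day 2 it was not called (1.31 ± 0.62, adjusted p = 0.225, limma), and without the shallow library it was (1.75, adjusted p = 0.0118).

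In Mgmt-/- livers of month 10 the Cbr3 groups overlapped over both sexes together. The 6 NDMA males had 12.7, 24.6, 35.8, 42.9, 50.0 and 202, and the 5 saline males had 0.89, 1.6, 2.6, 8.2 and 11.7. The 7 NDMA females had 4.16 to 6.66 and the 7 saline females 1.48 to 6.35. Every NDMA male was above every saline male, and 2 of 7 NDMA females were above the highest saline female. Over both sexes the log2 fold change was 1.67 ± 0.41 (SE, adjusted p = 0.00788, limma). The sex by treatment term, male minus female, was 2.74 ± 0.68, with an adjusted p of 0.0559 (limma) that misses the threshold and falls to 0.0286 with a pseudocount of 5. No sex by treatment term of any member passed 0.05 in the 10 comparisons, where 0.338% of all genes did in Mgmt-/- month 10, 0.114% in Mgmt-/- week 10 and 0% in the other 8. On WT days 2 and 5 and in WT week 10 that term is as much one of batch.

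**Figure D2:**
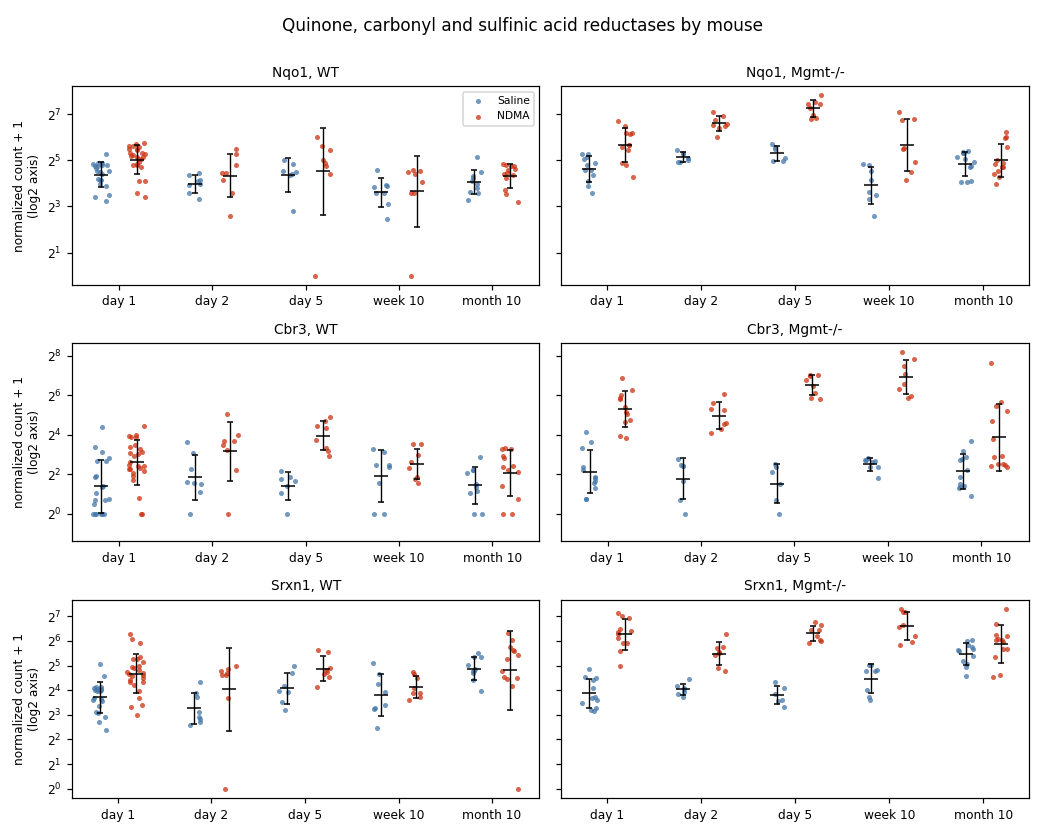
Normalized count + 1 of Nqo1, Cbr3 and Srxn1 (log2 axis) in each mouse at the 5 collection times, with WT on the left and Mgmt-/- on the right; saline is blue, NDMA is red, and the black marks are the mean ± SD of the log2 values. The red points at the bottom of the WT panels on day 2 and later include NDMA libraries with fewer than 300000 reads, and on day 5 in Mgmt-/- livers the 2 groups are apart for all 3 genes.

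Srxn1 (chromosome 2, 152105516 to 152111376) encodes sulfiredoxin, which restores peroxiredoxins whose active cysteine has been oxidized to sulfinic acid. In Mgmt-/- livers the day 1 groups were apart, with NDMA at 30.9, 79.2 and 139 (lowest, median and highest) and saline at 7.98, 12.1 and 28.1. On day 5 NDMA mice had at least 59.98, with a median of 79.3 and a highest of 107, and saline mice 9.11, 12.2 and 19.2. In week 10 NDMA mice had 56.8, 97.2 and 155 and saline mice 11.2, 26.6 and 31.3. Every NDMA mouse was above every saline mouse at these times and on day 2. The log2 fold change was 2.39 ± 0.22, 1.44 ± 0.21, 2.51 ± 0.19 and 2.14 ± 0.26 (SE) on days 1, 2 and 5 and in week 10, with adjusted p from 4.86e-10 to 5.13e-06 (limma). In month 10 it was 0.40 (95% interval -0.07 to 0.88) and not called, and saline mice by then had 45.2 ± 13.1 (SD, n = 12). In WT livers Srxn1 rose on day 1, with NDMA at 6.99, 24.4 and 76.4 and saline at 4.29, 14.8 and 32.1, overlapping groups and a log2 fold change of 0.92 ± 0.20 (SE, adjusted p = 0.000505, limma), which in batch 200803Eng alone was 0.24 and not called. On WT days 2 and 5 it was not called with limma (0.77 ± 0.55 and 0.79 ± 0.30), and without the shallow library of each day it was (1.33, adjusted p = 0.00176, and 0.90, adjusted p = 0.0347). With all libraries of WT day 2, edgeR (1.24, adjusted p = 0.0242) and DESeq2 (1.24, adjusted p = 0.00611) called Srxn1. The batch of the males alone also gave a call there (1.52, adjusted p = 0.00208, limma).

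Txnrd1 (chromosome 10, 82833951 to 82897712) encodes the cytosolic thioredoxin reductase, a selenoprotein that keeps thioredoxin reduced. On days 1, 2 and 5 in Mgmt-/- livers its log2 fold changes were below those of Nqo1, Cbr3 and Srxn1. On day 1 NDMA mice had 49.4, 90.5 and 128 (lowest, median and highest) and saline mice 32.6, 41.8 and 80.3. Txnrd1 rose by 0.93 ± 0.14 on the log2 scale (SE, adjusted p = 2.81e-06, limma) on day 1, 0.71 ± 0.17 on day 2 and 0.91 ± 0.19 on day 5. In batch 200803Eng alone the day 1 call was lost (0.79, adjusted p = 0.0789, limma). In week 10 it was 0.65 ± 0.23 with an adjusted p of 0.0639 (limma). There 1 saline mouse stood at 160, and without it the value was 0.84 with an adjusted p of 0.000936 (limma). Leaving out 1 NDMA mouse (0.73) or scaling to equal totals (0.86) also brought a call. In WT livers Txnrd1 was not called at any time, with log2 fold changes from -0.14 to 0.31, but within batch 191212Eng of day 1 it was (0.72, adjusted p = 0.000307, limma).

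Gclc and Gclm encode the catalytic and the modifier subunit of glutamate-cysteine ligase, the first and limiting step of glutathione synthesis, and Gsr encodes glutathione reductase, which turns oxidized glutathione back. Of the 3 genes Gclc alone was called, and once. On day 5 in Mgmt-/- livers Gclc (chromosome 9, 77754535 to 77794485) was 78.3, 111 and 171 with NDMA and 63.6, 72.3 and 80.1 with saline, and 7 of 8 NDMA mice were above every saline mouse. The log2 fold change was 0.61 ± 0.15 (SE, adjusted p = 0.00478, limma), just over the threshold, and leaving out any of 3 mice in turn took it under 0.58. In Mgmt-/- week 10 Gclc was also 0.61 but not called, and with 1 mouse left out it ran from 0.44 to 0.84. On WT days 1, 2 and 5 and in WT week 10 it ran from -0.49 to -0.20 and was not called. Gclm (chromosome 3, 122245557 to 122270732) had log2 fold changes from -0.40 to 0.08 in Mgmt-/- livers and from -0.51 to 0.14 in WT livers. The -0.51, of WT day 5, was -0.22 without the shallow library, and the -0.39 of Mgmt-/- week 10 was -0.18 without the saline mouse that was highest there for Gsr and Txnrd1. On WT day 1 it was lower by less than the fold threshold (-0.44 ± 0.16, adjusted p = 0.0368, limma). Gsr (chromosome 8, 33652523 to 33698163) was 58.0 ± 19.3 with NDMA and 40.0 ± 11.9 (SD, n = 12 each) with saline on Mgmt-/- day 1, a log2 fold change of 0.51 ± 0.18 (SE, adjusted p = 0.0301, limma) that was also under the fold threshold. Scaled to equal totals that value was 0.71 and called. At the other times in Mgmt-/- livers Gsr ran from -0.49 to 0.46 and was not called, but on day 5 it was called without 1 NDMA mouse (0.62, adjusted p = 0.04, limma). The -0.49 of week 10 was -0.25 without the saline mouse at 227. On WT days 1, 2 and 5 and in WT week 10 Gsr was 0.22, -0.52, -0.66 and -0.42 and not called. Without the shallow library the last 3 were 0.12, -0.39 and -0.22. On Mgmt-/- day 1 Srxn1 had a log2 fold change of 2.39 and Gclm one of -0.33 (95% interval -0.66 to 0.01).

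Hmox1 (chromosome 8, 75093621 to 75100589) encodes heme oxygenase 1, which opens heme to biliverdin, carbon monoxide and iron, and which macrophages that take up red cells express strongly. In Mgmt-/- livers it was called on days 2 and 5 and in week 10. On Mgmt-/- day 1 NDMA mice had 20.7, 58.7 and 153 (lowest, median and highest) and saline mice 21.2, 53.3 and 68.8, and the log2 fold change was 0.35 (95% interval -0.09 to 0.80, not called), while within batch 191212Eng it was 0.75 and called (adjusted p = 0.0111, limma). On day 2 NDMA mice had 80.3, 91.8 and 177 and saline mice 19.1, 37.0 and 66.0, with no overlap. The log2 fold change was 1.27 ± 0.22 (SE, adjusted p = 0.000165, limma) on day 2, 1.14 ± 0.18 on day 5 and 1.23 ± 0.34 (adjusted p = 0.0183) in week 10. In month 10 it was 0.80 ± 0.29 with an adjusted p of 0.0811 by limma, and it was called with DESeq2 (1.07, adjusted p = 0.0281), and 2 NDMA males stood at 54.4 and 78.3. In WT livers Hmox1 was called at no time, other than within batch 210901Eng of day 1 (0.67, adjusted p = 0.0321). On WT day 1 it was 0.41 ± 0.14 (adjusted p = 0.0241, limma), under the fold threshold, and on WT day 2 the saline mice had 104 ± 26.5 (SD, n = 8) and the NDMA mice 78.3 ± 21.8 (n = 8).

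Macrophage markers moved beside Hmox1. Of 13 tested in Mgmt-/- livers 3 rose and 3 fell on day 1, and 8, 9, 8 and 6 rose with none falling from day 2 to month 10. Their summed normalized count was 2105 with NDMA and 1763 with saline on day 1, 3264 ± 1296 (SD) and 1443 ± 312 on day 2, 3024 and 1521 on day 5, 2258 and 1121 in week 10 and 1351 and 707 in month 10. Lyz2 was the most abundant of the 14 in every one of these groups, and none of the 14 was at 0 throughout a group. Clec4f, a Kupffer cell marker, fell on day 1 (log2 fold change -1.23) and was not called later, while Ccr2, a marker of recruited monocytes, rose at all 5 times. Among the WT comparisons 5 of 13 macrophage markers rose and 1 fell on day 1, 2 rose and 2 fell on day 2, 2 rose on day 5, and none of 12 was called in week 10 or month 10. The naming of Clec4f and Ccr2 followed a look at their values. Other markers of both kinds are on the list and are not named here, so these genes do not speak for their cell types. The part of these markers in the Hmox1 result was not tested.

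Ephx1 (chromosome 1, 180976210 to 181020904) encodes microsomal epoxide hydrolase, which opens reactive epoxides to diols. It was called in 7 of the 10 comparisons. On Mgmt-/- day 1 NDMA mice had 549, 1319 and 2176 (lowest, median and highest) and saline mice 99.8, 177 and 259. On day 5 NDMA mice had 1819, 2214 and 3091 and saline mice had a lowest of 388 and a median of 431, with every NDMA mouse above every saline mouse. The groups were apart on days 1, 2 and 5, with log2 fold changes of 2.81 ± 0.14, 2.57 ± 0.16 and 2.37 ± 0.12 (SE). The adjusted p was 7.00e-18 on day 1 (limma), and the week 10 value was 0.99 ± 0.25. In month 10 it was 0.58 ± 0.15 (adjusted p = 0.0105, limma), at the threshold itself, and the call was lost with a pseudocount of 5, with treatment as the only term and with all libraries at the same total. There NDMA females had 451, 718 and 1087 and saline females 296, 377 and 533, while NDMA males had 1019, 1085 and 1529 and saline males 972, 1100 and 1186. Females were mostly apart and males overlapped, but the sex by treatment term, male minus female, was -0.80 ± 0.27 with an adjusted p of 0.112 (limma). On WT day 1 Ephx1 was the most changed member, at 1140 ± 453 (SD, n = 26) with NDMA and 172 ± 61.2 (n = 21) with saline, a log2 fold change of 2.59 ± 0.20 (SE, adjusted p = 1.01e-12, limma). It was 2.71 without the saline library of high Cdkn1a and 2.87 without the 3 discordant libraries, and in their batch alone it was 1.20 and not called. All 24 NDMA libraries whose sex genes met their labels were above every saline library, the lowest at 399. On WT day 2 it was 1.32 ± 0.25 (adjusted p = 0.00314, limma) and in the batch of the females alone 0.94 and not called. On WT day 5 limma gave 0.85 ± 0.27 (adjusted p = 0.0892, not called), or 0.63 with an adjusted p of 0.0411 without the shallow library. Ephx1 was called on WT day 5 with edgeR (0.85, adjusted p = 0.0423) and with DESeq2 (0.885, adjusted p = 0.0248).

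**Figure D3:**
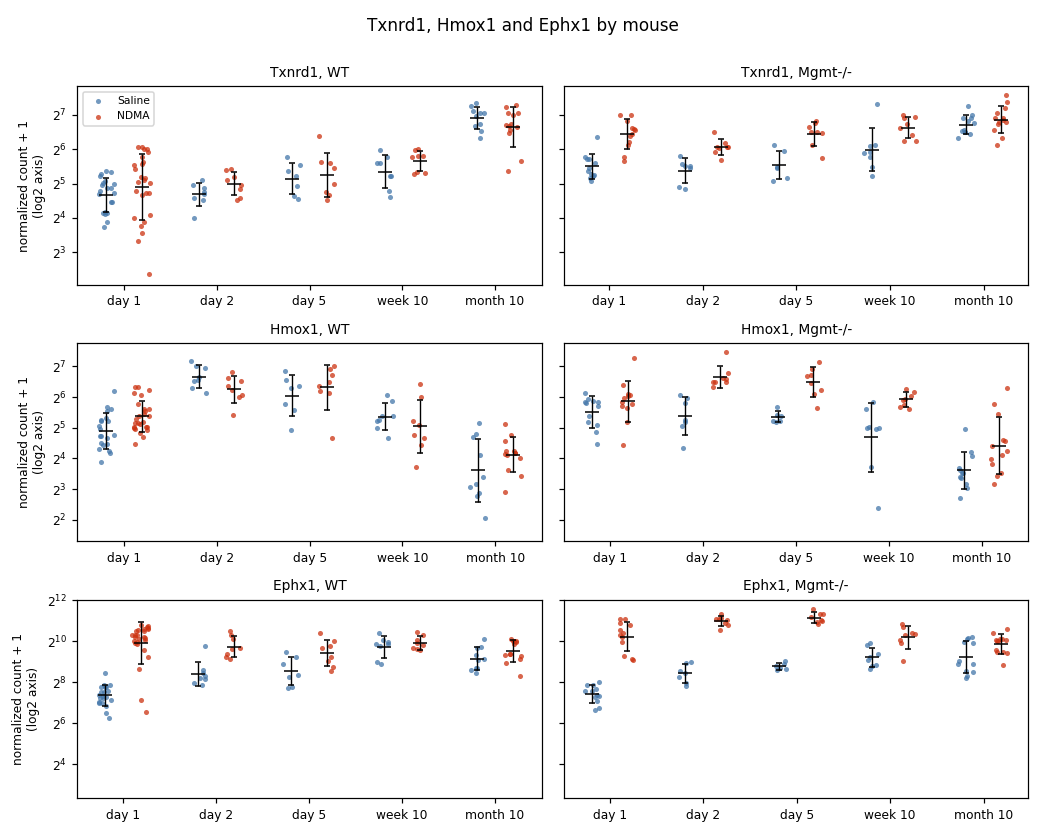
Normalized count + 1 of Txnrd1, Hmox1 and Ephx1 (log2 axis) in each mouse at the 5 collection times, with WT on the left and Mgmt-/- on the right; saline is blue, NDMA is red, and the black marks are the mean ± SD of the log2 values. On day 1 the Ephx1 groups are apart in Mgmt-/- livers, and in WT livers 2 NDMA points, at 93.7 and 139, lie among the saline points.

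Abcc4 (chromosome 14, 118482692 to 118706219) encodes MRP4, a pump in the sinusoidal membrane that exports conjugates and bile acids to blood. It had few reads, 20 in all in the 8 saline mice and 156 in the 8 NDMA mice of Mgmt-/- week 10. There NDMA mice had 2.36, 10.9 and 26.5 (lowest, median and highest) and saline mice 0, 3.30 and 17.0. The log2 fold change was 1.52 ± 0.55 (SE, adjusted p = 0.0742, limma). Abcc4 was not called at that time, although it was with edgeR (1.62, adjusted p = 0.0368) and with DESeq2 (1.59, adjusted p = 0.0228). It was also called with equal totals (1.68, adjusted p = 0.0446), without 1 NDMA mouse (1.81, adjusted p = 0.0288) and without 1 saline mouse (1.88, adjusted p = 0.015), by limma. On the other 3 tests its interval included 0.

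The 2 genotypes were compared by a genotype by treatment term, fitted with the edgeR quasi-likelihood test on whole reads recovered from the values, and a positive term means a larger log2 fold change in Mgmt-/- than in WT livers. On day 2 the term rested on 5 of the 8 WT saline mice, since whole reads could not be recovered for 3, and it was positive for Hmox1 (1.48, adjusted p = 0.00226) and Ephx1 (1.44, adjusted p = 0.0104). On day 5 it was positive for Srxn1 (1.69, adjusted p = 0.00249), Ephx1 (1.45, adjusted p = 0.00581) and Nqo1 (1.29, adjusted p = 0.0339). In week 10 it was positive for Cbr3 (4.66, adjusted p = 1.5e-06), Srxn1 (1.96, adjusted p = 0.00189) and Nqo1 (1.49, adjusted p = 0.0213). That is 2 of 9, 3 of 9 and 3 of 9 tested members, where 2.5%, 1.51% and 3.74% of all genes tested had a positive term and 1.56%, 1% and 3.39% a negative one. Cbr3 entered these counts through its NDMA mice, and without it they were 2, 3 and 2 of 8. Without sex and batch as terms Nqo1 was lost on day 5 and in week 10. DESeq2 gave a positive term to more members on days 2 and 5 than edgeR did. At none of these 3 times, days 2 and 5 and week 10, did a library batch hold both genotypes. Batch and genotype thus cannot be told apart there, in the levels or in the response to NDMA.

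On day 1 no member had a genotype by treatment term past 0.05 with edgeR, and DESeq2, which gave an adjusted p to 3 of the members only, called none. Of all genes 0% had a positive term and 0.00993% a negative one. At an unadjusted p under 0.05, 3 members stood: Srxn1 (1.14, p = 0.000608), Cbr3 (1.71, p = 0.00446) and Txnrd1 (0.42, p = 0.0476), by edgeR. The share of all genes at that cut is not given here, so the 3 are a description only. Of them Cbr3 had a saline mean under 5 and passed the filter through its NDMA mice. Without the saline library of high Cdkn1a Srxn1 was 1.07 (p = 0.000912) and Cbr3 1.42 (p = 0.0149), and Txnrd1 had a p of 0.0558. For Ephx1, called in both genotypes on day 1, the term was 0.17 (adjusted p = 0.921, edgeR). In month 10 none of the 9 tested members had a term past 0.05, and none had an unadjusted p under 0.05, with 0.889% of all genes positive and 0.693% negative. Cbr3 was not tested there. A p that misses the threshold does not show that the genotypes responded alike.

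**Figure D4:**
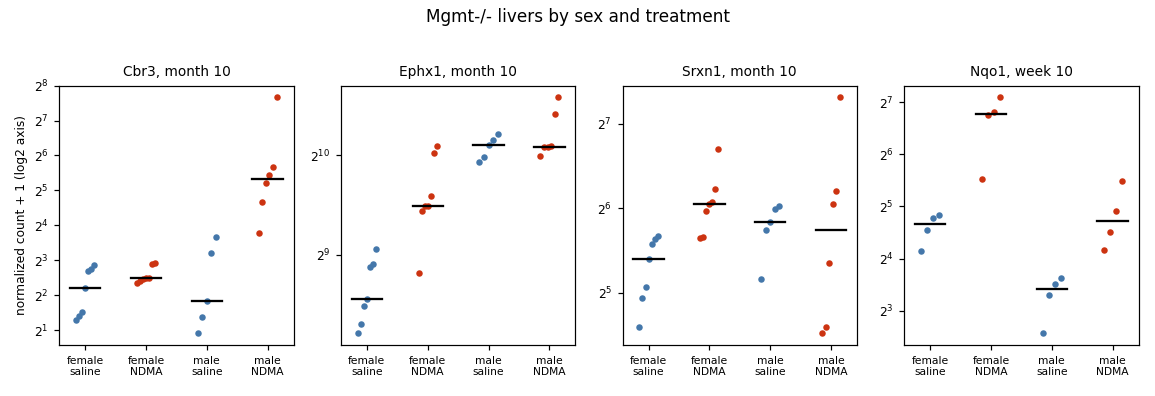
Normalized count + 1 (log2 axis) of Cbr3, Ephx1 and Srxn1 in month 10 and of Nqo1 in week 10 in each Mgmt-/- mouse, by sex and treatment; saline is blue, NDMA is red and the black line is the median of the group. The 6 NDMA males of Cbr3 (12.7 to 202) lie above the 5 saline males, and in Nqo1 the NDMA mice lie above the saline mice of their own sex.

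Untreated levels changed with age. In Mgmt-/- saline livers of the 1 batch that held both ages, 12 mice of month 10 were compared with 4 of day 1, and 7 of the 10 genes were called higher and 1 lower, against 28.7% and 22% of all genes tested. Ephx1 went from 125 ± 26.5 (SD, n = 4) to 686 ± 358 (n = 12), a log2 difference of 2.37 ± 0.23 (SE, adjusted p = 3.5e-09, limma). Gclm went from 172 ± 29.3 to 464 ± 79.2 and Txnrd1 from 36.7 ± 1.14 to 106 ± 21.5, with no overlap of the ages in either. On the log2 scale Gsr was higher by 1.63, Srxn1 by 1.43 and Nqo1 by 0.75, and Gclc went from 152 to 353. Hmox1 went the other way, from 61.1 ± 5.45 to 12.3 ± 6.53, a log2 difference of -2.32 ± 0.31. Cbr3 was -1.20 ± 0.52 (adjusted p = 0.0519, limma), and with a pseudocount of 5 it was called lower (adjusted p = 0.0316, limma). On day 1 the 4 mice used averaged 16.0 for Nqo1 and 10.2 for Cbr3, and all 12 Mgmt-/- saline mice 25.5 and 4.75. In month 10 the averages were 29.6 and 4.27, so both differences depend on which day 1 mice are used. Hmox1, lower with age, was a gene that rose with NDMA at 3 times, and Gclm, higher with age, was called with NDMA at no time.

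Of the proteins that govern Nrf2, Nfe2l2 itself rose in Mgmt-/- livers on days 1, 2 and 5 and in week 10, by 1.15 ± 0.12, 1.25 ± 0.12, 1.16 ± 0.11 and 0.91 ± 0.17 (log2 fold change, SE), and not in month 10 (0.05). On day 1 its normalized count was 244 ± 59.7 with NDMA and 108 ± 16.2 (SD, n = 12 each) with saline. In WT livers it was called on day 1 (0.63 ± 0.09, adjusted p = 5.91e-07, limma), and no regulator was called there at a later time. Keap1, the sensor, was called at no time and had values from -0.43 to -0.02 in Mgmt-/- livers. Mafg, a small Maf partner, fell on Mgmt-/- days 1 and 2 (-0.79 and -0.58). Bach1, a repressor that competes for the same elements, and Sqstm1, which binds Keap1 in autophagy, rose on Mgmt-/- day 5 (1.39 and 0.70). Cul3, Rbx1 and Nfe2l1 were called at no time in Mgmt-/- livers, Maff was under the filter in all 10 comparisons and Mafk in 9.

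Other textbook Nrf2 targets, 22 by list, moved in part. In Mgmt-/- livers 8 of 20 tested rose and 1 fell on day 1, 4 of 20 rose on day 2, 6 of 20 on day 5, 8 of 21 in week 10, and in month 10 6 of 20 rose and 1 fell. Their median log2 fold changes were 0.42, 0.29, 0.36, 0.32 and 0.14. In WT livers 6 of 20 rose and 2 fell on day 1, 1 of 18 rose and 1 fell on day 2, 1 of 19 fell on day 5, and none was called in week 10 or month 10, with medians of 0.30, -0.07, -0.46, -0.03 and 0.04. Gsta1, a glutathione transferase, rose at all 5 times in Mgmt-/- livers and in week 10 reached 297 ± 141 with NDMA against 11.3 ± 11.1 (SD, n = 8 each) with saline; near-identical transferase copies may share its reads, so its level is uncertain. Gstm3, another transferase, rose on days 1 and 5, in week 10 (3.92 ± 0.37) and in month 10 (1.96 ± 0.24). Ugdh, which makes UDP-glucuronate, rose on days 1 and 2 and in week 10. Cyp2a5, a P450 that hydroxylates coumarin, fell on Mgmt-/- day 1 (-1.23 ± 0.30). Of the enzymes that supply NADPH, G6pdx, the entry to the pentose phosphate pathway, rose at all 5 times, from 0.72 on day 1 to 1.35 on day 5, while Me1, malic enzyme, rose on day 1 (1.32) and fell in month 10 (-1.78). G6pdx and Me1 were chosen after their values were seen.

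Of 6 relatives of the members, 2 fell on day 1 and none rose. Cbr1, the neighbour of Cbr3 in function, rose on Mgmt-/- days 2 and 5 (0.58 and 0.90). Txnrd2, the mitochondrial thioredoxin reductase, fell on days 1, 2 and 5 (-0.73, -0.80 and -0.79), when Txnrd1 rose. Ephx2, the soluble epoxide hydrolase, fell on day 1 and in week 10 (-0.69 and -0.73), when Ephx1 rose. Nqo2, Hmox2 and Gss were called at no time in Mgmt-/- livers. Of 10 general antioxidant enzymes in Mgmt-/- livers 1 rose and 2 fell on day 1, Cat, the catalase, at -0.65 among them, none was called on day 2 or in month 10, 1 rose on day 5, and 1 rose and 1 fell in week 10. In WT livers none of the 6 relatives was called, and of the antioxidant enzymes 1 rose and 1 fell on day 2 and 1 fell on day 5.

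Gene groups of other sensors moved beside the members. Of 8 targets of the constitutive androstane receptor, which also drives Ephx1, none rose in Mgmt-/- livers, and 6, 7, 5, 2 and 2 fell from day 1 to month 10, Cyp2c29 by 2.34, 1.85, 1.79, 1.62 and 0.81 on days 1, 2 and 5, in week 10 and in month 10. Cyp2b9 fell by 1.02 on day 1 and Cyp2b13 and Cyp2c55 by 1.55 and 1.71. Of 5 targets of the aryl hydrocarbon receptor, which also drives Nqo1, 2 were tested at each time, 1 of them fell on days 1, 2 and 5, and Cyp1a2 fell by 3.50 on day 1. Cyp1a2 is also on the list of pericentral markers, so it counts in both groups. The p53 targets rose, 9 of 10 tested on Mgmt-/- day 1, 8 of 8 on days 2 and 5, 6 of 8 in week 10 and 2 of 7 in month 10, with Phlda3, Eda2r, Cdkn1a and Ccng1 at 4.92, 4.67, 4.42 and 3.44 on day 1. Pericentral hepatocyte markers fell, 5 of 5 on day 1, 4 of 4 on days 2 and 5, 3 of 4 in week 10 and 3 of 6 in month 10, and Cyp2e1, which activates NDMA, by 3.76 on day 1 (named after its values were seen). In WT livers, on days 1, 2 and 5, genes of these groups were also called, though not of every group on each day. There 8 of 8, 6 of 8 and 5 of 7 p53 targets rose, with medians of 2.05, 2.31 and 1.57, and 4 of 4 pericentral markers fell on each day, with medians of -2.04, -2.22 and -1.85. Of the 8 targets of the constitutive androstane receptor 0, 5 and 2 fell, and 1 of 2 targets of the aryl hydrocarbon receptor did on each day. None of these groups had a gene called in WT week 10 or month 10.

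Markers of liver cell types moved too. Hepatocyte markers fell in Mgmt-/- livers, 3 of 5 on days 1 and 2 and 1 of 5 on day 5 and in week 10, while in month 10 1 of 5 rose (median of the 5 0.04). Their sum was 178445 with NDMA and 282381 with saline on day 1, with Alb the most abundant. Erythroid markers fell, 5 of 5 on day 1, 3 of 5 on day 2 and 5 of 6 on day 5, and none of 4 was called in week 10 or month 10, with a sum of 20387 against 34846 on day 1 and Hbb-bs the most abundant. T cell markers rose, 1 of 2 on day 1 and 2 of 2 on days 2 and 5, and neither was called in week 10, with a sum of 111 against 18.2 on day 5. Stellate cell markers fell early, 3, 2 and 1 of 5 on days 1, 2 and 5, and 3 of 5 rose in week 10, with a sum of 686 against 404 and Dcn the most abundant, and 2 of 6 in month 10. Of cholangiocyte markers 1 of 2 fell on day 1, 1 of 1 on day 5, and 1 of 2 rose in week 10, where the sum, mostly Spp1, was 954 against 150, and 1 of 2 in month 10 (median 1.32). Of 5 endothelial markers 1 rose and 3 fell on day 1, 2 rose and 1 fell on day 2, 1 rose and 2 fell on day 5, and 1 rose and none fell in week 10 and in month 10 (medians 0.15 and 0.28). In WT livers fewer of these markers were called: on day 1 a cholangiocyte and a T cell marker rose and 2 stellate cell markers and an endothelial one fell, on day 2 a T cell marker rose and a hepatocyte and a stellate cell marker fell, on day 5 2 T cell markers rose and a stellate cell marker fell, and none was called later. The part of these groups in the members' changes was not tested.

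Across libraries the members did not form 1 block. Each gene was centred on the saline mean of its genotype and time on the log2 scale, standardized, and correlated with the mean of the other 9, as a description over libraries that share treatment and depth. In 94 Mgmt-/- libraries Pearson's r was 0.86 for Srxn1, 0.74 for Cbr3, 0.73 for Txnrd1, 0.72 for Nqo1 and 0.61 for Ephx1, and it was 0.17 for Hmox1 and -0.04 for Gclm. In 117 WT libraries the highest were 0.60 for Srxn1 and 0.57 for Gsr. Of 10084 other genes in Mgmt-/- livers those most like the mean of the members were Gm3776 (0.85), Gsta1 (0.83), Phlda3 (0.82), Spink1 (0.79) and Btg2 (0.79). Of 9089 in WT livers they were Ugdh (0.73), Ei24 (0.73), H2-K1 (0.71), Fat1 (0.70) and Spint2 (0.67).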

How the data were processed

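Per the methods of the study the authors aligned reads with STAR to GRCm38 (mm10) and summed 3′ ends by gene with ESAT. The deposited values are gene counts divided by DESeq2 size factors (signal), made for each genotype by itself. Versions and the annotation are not given in the sources used here. Values were whole multiples of 1 read (tolerance 0.1) in 209 of 213 libraries, and the other 4 (3 WT saline of day 2 and 1 Mgmt-/- NDMA of day 1) stayed out of tests on counts.

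From these values limma 3.58.1 (trend, robust) in R 4.3.3 gave two-sided tests with Benjamini-Hochberg adjustment, and edgeR 4.0.16 (TMM) gave the genotype by treatment term. The log2 scale with a pseudocount understates changes of low genes. Alternatives were pseudocounts of 0.5 and 5, a mean of at least 20 or no filter on low values, fewer terms, equal totals, edgeR, DESeq2 1.42.0, single batches and left-out libraries. Leaving out members with a low saline mean or the WT saline library of high Cdkn1a and, for the genotype term, shallow or sex-discordant libraries was chosen after seeing the data. The tests were checked on simulated data. Tables used pandas 2.3.3, and matplotlib 3.10.9 drew the figures.

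Members and lists were chosen with earlier results of these data known. Named were all members, regulators and relatives, up to 4 genes per other list (called in at least 3 comparisons, largest change on Mgmt-/- day 1) and the 5 genes most like the members. Outside this rule are genes used to check libraries, the most abundant markers of some cell types and a few said in the text to be so. Each library is 1 mouse, so p-values measure the spread between mice. The methods of the study state that litters were assigned to saline or NDMA at birth, and also that controls were sibling littermates. Mice came from separate litters where possible. The labels used here name no litter, so litter and treatment cannot be told apart.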

Additional observations from a re-analysis of the deposited data

Results flagged for a closer look

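A lowest or highest mouse far from the rest of its group (Dixon's criterion) was found in 16 of 130 sets, each of 1 gene in 1 group of 4 to 10 mice. The criterion flags about 1 in 20 sets of normal values. Here the same mice recur over the 10 genes and some counts are at 0, so that rate cannot be set beside the 16. Of these, 8 are the lowest values of WT NDMA libraries with fewer than 300000 reads: Gclc 21.0, Gsr 0 and Srxn1 0 on day 2, Abcc4 0, Gclm 24.6, Hmox1 24.6 and Nqo1 0 on day 5, and Nqo1 0 in week 10. A further 3 are 1 Mgmt-/- saline mouse of week 10, the highest of its group for Gclm (616), Gsr (227) and Txnrd1 (160). The other 5 are Ephx1 in a WT saline mouse of day 2 (869), Nqo1 in a WT saline mouse of day 5 (5.88), Hmox1 in a Mgmt-/- NDMA mouse of day 2 (177), and the Mgmt-/- saline values of Abcc4 on day 5 (6.57) and Cbr3 in week 10 (2.46).

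The NDMA response differed between genotypes, by the edgeR genotype by treatment term, for 8 pairs of gene and time. The terms were 1.48 for Hmox1 and 1.44 for Ephx1 on day 2, 1.29 for Nqo1, 1.69 for Srxn1 and 1.45 for Ephx1 on day 5, and 1.49 for Nqo1, 4.66 for Cbr3 and 1.96 for Srxn1 in week 10. Cbr3 passed the filter through its NDMA mice, and the Nqo1 terms were lost without sex and batch as terms. At these 3 times no batch held both genotypes.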

How the results depend on the processing

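Of 618 alternative values of the 31 called fold changes, 602 kept their direction and call, 15 kept the direction and lost the call, and 1 turned: Cbr3 on WT day 1 was -0.59 in batch 200803Eng alone. The 31 values with no fold threshold came from the reported fit and could not lose a call. A setting that put a gene under the filter gave no value and is not among the 618. With a mean of at least 20, for example, 27 of the 31 were counted. The number of members called higher on WT day 1 was 2 with a pseudocount of 5 and 0 in batch 200803Eng alone (0% of all genes), and 1 was called lower with no fold threshold. It was 3 without the saline library of high Cdkn1a or without all 3 discordant libraries, where Cbr3 was under the filter. On WT day 2 it was 2 with edgeR, 2 with DESeq2, 4 in batch 200710Eng alone (males, 5.28% of all genes), 0 in batch 200724Eng alone (females, 0% of all genes) and 3 without libraries under 300000 reads, and with 1 mouse left out in turn it ran from 1 to 3. On WT day 5 it was 0 with a mean of at least 20, 2 with edgeR, 2 with DESeq2, 0 in batch 200724Eng alone (0% of all genes) and 3 without libraries under 300000 reads, and with 1 mouse left out from 1 to 3. On Mgmt-/- day 1 it was 3 in batch 200803Eng alone. In Mgmt-/- week 10 it ran from 4 to 7. In Mgmt-/- month 10 it was 1 with a pseudocount of 5, a mean of at least 20, treatment alone or equal totals, and its range over all alternatives was 1 to 3. Without members whose saline mean was under 5 it was 0 on WT day 5 and 1 in Mgmt-/- month 10. Shares of all genes called with edgeR, DESeq2, a pseudocount of 5, a mean of at least 20 or treatment alone are not given here. Nor are those with 1 mouse left out or, in Mgmt-/- month 10, with equal totals, so these counts cannot be read against them. Members with a positive genotype term numbered 4 on day 2 and 5 on day 5 with DESeq2, and 2 in week 10 without members of low saline mean. The share of all genes with a positive term by DESeq2 is not given here, so its counts cannot be read against it. With a pseudocount of 5, 1 sex by treatment term passed and 2 members were lower with age. Single batches hold fewer mice, and the cause of the other changes was not tested. No paired analysis was possible because library numbers do not tie mice across treatments. In the 4 WT libraries under 300000 reads 1 read was worth 6.50 to 10.5 normalized counts, and 2 or 3 of the 10 members were at 0 in each: Cbr3, Gsr and Srxn1 on day 2, Abcc4 and Nqo1 on day 5 and in week 10, and Abcc4, Cbr3 and Srxn1 in month 10.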
